A study of Mus musculus with 6 samples.

Results

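The SR protein kinases and SR-related proteins followed here are 10 genes, taken by symbol (in capitals in the files: CLK1, CLK2, CLK3, CLK4, SRPK1, SRPK2, TRA2A, TRA2B, SRRM1 and SRRM2) from a count table of 24982 gene rows. They are the kinases Clk1, Clk2, Clk3, Clk4, Srpk1 and Srpk2, the splicing activators Tra2a and Tra2b, and the nuclear speckle proteins Srrm1 and Srrm2. All 10 were found in the count table and in the FPKM table, and all 10 passed the filter on low counts. RNA came from natural regulatory T cells (nTreg cells, CD4+CD25+CD127lo), which restrain other immune cells, sorted from the spleens of B6.129 mice aged 8 to 10 weeks. The wild-type (WT) group had 3 mice, and the knockout (KO) group had 3 mice of genotype Srsf1-flox/flox dLck.Cre, in which Cre under the distal Lck promoter, active in late thymocytes and mature T cells, removes the splicing factor gene Srsf1. In both groups the sorted cells were stimulated through CD3 and CD28 (antibodies at 2 µg/ml each), with 10 ng/ml of interleukin-2, for 72 h, so neither group describes resting cells. The titles and the sorting protocol name nTreg cells, while the source field names effector CD4 T cells. Foxp3, the defining factor of regulatory T cells, was present in all 6 libraries, at 104 to 160 CPM (counts scaled to library size) in WT and 356 to 464 CPM in KO. Cd3e (197 to 255 against 352 to 389 CPM) and Cd4 (238 to 315 against 425 to 502 CPM) were also higher in every KO library, while Il2ra overlapped (4070 to 6562 against 3298 to 6875 CPM), as did the sum of these 4 T and Treg markers (4677 to 7134 against 4539 to 8179 CPM).

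SR proteins are splicing factors with a tail rich in arginine and serine, the RS domain, and Srsf1 is their best known member. In the cytoplasm SRPK kinases phosphorylate the RS domain, which lets the import receptor transportin-SR (Tnpo3) carry SR proteins into the nucleus. There CLK kinases phosphorylate them further and release them from nuclear speckles to sites of splicing. TRA2 proteins carry RS domains and activate exons with GAA-rich sequences, while SRRM1 and SRRM2 are large RS-rich proteins that bridge splicing complexes and, for SRRM2, scaffold speckles. Several of these genes also regulate their own splicing: transcripts that skip or include certain exons are degraded by nonsense-mediated decay, and others keep an intron and stay in the nucleus. Stimulated T cells are known for wide changes in alternative splicing, in which SR proteins take part.

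The exon that each CLK gene skips in an annotated decay transcript is shown first, because a gene-level count adds up reads from transcripts with and without it. In the GENCODE M21 annotation (GRCm38) it is exon 4 of the coding transcript in all 4 genes, lies within the coding part, and has a length that is not a multiple of 3 bases: 91 in Clk1, 88 in Clk2, 97 in Clk3 and 91 in Clk4. Capitals mark the 6 positions at which the exons of Clk1 and Clk4 differ, compared base by base without gaps. For Clk2 and Clk3 no bases are marked.
Clk1 exon 4, chr1:58420121-58420211, minus strand: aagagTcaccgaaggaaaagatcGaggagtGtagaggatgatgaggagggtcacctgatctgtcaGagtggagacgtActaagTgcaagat
Clk4 exon 4, chr11:51273078-51273168, plus strand: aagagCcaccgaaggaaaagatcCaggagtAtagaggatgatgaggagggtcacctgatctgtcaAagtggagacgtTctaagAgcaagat
Clk2 exon 4, chr3:89169615-89169702, plus strand: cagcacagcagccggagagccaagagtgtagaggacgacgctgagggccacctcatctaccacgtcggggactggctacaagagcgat
Clk3 exon 4, chr9:57758627-57758723, minus strand: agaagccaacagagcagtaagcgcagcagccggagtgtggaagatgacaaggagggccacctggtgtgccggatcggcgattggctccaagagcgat

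The CLK kinases are also called LAMMER kinases, after a motif in their catalytic domain. The 33 coding bases at the motif are shown because it gives the family its name. Clk1, Clk2 and Clk4 code for the motif exactly, while the stretch of Clk3 codes for a variant of it. Capitals mark bases that differ from Clk1, which number 6 in Clk2, 7 in Clk3 and 9 in Clk4.
Clk1: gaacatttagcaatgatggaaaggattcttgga
Clk2: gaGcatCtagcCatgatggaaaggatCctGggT
Clk3: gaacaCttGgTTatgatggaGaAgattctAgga
Clk4: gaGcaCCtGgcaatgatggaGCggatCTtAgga
Along the main annotated coding transcript with its untranslated ends, 0 of the 75-base windows (the read length) of Clk1, Clk2, Clk3, Clk4, Srpk2 and Tra2a occurred in a transcript of any other gene. The share was 0.284% for Srpk1, 0.130% for Srrm1 and 1.75% for Srrm2. Tra2b shared 14.9% of its windows with Gm10254, Gm11957, Gm14639 and Gm6439, so its count is uncertain. Exons of Clk3 overlapped Edc3 over 23.4% of the transcript, and those of Srpk2 overlapped Kmt2e over 15.0%, both on the opposite strand, and the strand setting of the counting is not given in the sources used here.

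A feature that the 10 genes share is their annotated transcripts. Each of them has at least 1 decay transcript and at least 1 transcript with a retained intron in GENCODE M21, which holds for 23.1% of the 11674 tested genes that could be matched. Clk1 has 13 annotated transcripts, of which 1 is protein coding, 2 are decay transcripts and 7 retain an intron. Clk4 has 14, with 4, 3 and 7 of these kinds. In Tra2a and Tra2b the decay transcripts include an additional exon, of 306 bases in Tra2a-202 and 276 bases in Tra2b-206. The deposited tables hold 1 value per gene and library, so the shares of these transcripts were not measured here.

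Libraries held 10183626 to 27562046 counts, and the KO libraries were the 3 shallowest. One KO library, replicate 1, stood apart from the rest, with a correlation of log2 CPM across genes of 0.90 to 0.927 with the other libraries, against 0.945 to 0.989 among the other 5, and a mismatch rate of 0.52% against 0.32% to 0.43%. For Srsf1, the targeted gene, WT replicates 1 to 3 gave 1213, 1230 and 755 CPM, and KO replicates 1 to 3 gave 438, 811 and 786 CPM. The library labelled WT replicate 3 thus lay below the second and the third KO replicates. The log2 fold change was -0.65 in KO against WT (SE 0.32, edgeR quasi-likelihood test, adjusted p = 0.682), and -0.42 without KO replicate 1 (SE 0.24). Which exons are floxed is not given in the files or labels, and reads from the other exons still count, so this value is a limited check, and directions below follow the labels. The CD8 T cell markers, of which 2 of 2 were detected (Cd8a and Cd8b1), summed to 193 to 269 CPM in WT and 38.9 to 60.4 CPM in KO. In the library labelled WT replicate 3 this sum was 244 CPM, and Foxp3 stood at 104 CPM, against 356 to 464 CPM in KO. Whether a label is wrong was not tested. The 3 NK markers summed to 0.235 to 0.825 CPM in WT and 1.19 to 3.92 CPM in KO, with Klra8 at 0, and the 5 myeloid markers to at most 0.501 CPM, with Csf1r and Lyz2 at 0. The 4 B cell markers summed to 2.55 to 4.23 CPM in WT and 0.701 to 4.75 CPM in KO, nearly all from Cd79b, and the erythroid genes Hba-a1 and Hbb-b1 were listed at 0. In bulk samples, fewer cells of a type and less RNA per cell cannot be told apart, and the part of these cells in the values below was not tested.

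None of the 10 genes differed between KO and WT past the threshold. Of 11772 genes tested, edgeR's quasi-likelihood test called 0.017% at an adjusted p under 0.05 (Benjamini-Hochberg over all genes), and 0 of the 10 were among them. At an unadjusted p under 0.05 edgeR had 0 of the 10, against 7.51% of all genes (4.75% higher and 2.76% lower in KO). DESeq2, which called 0.914% of 13342 genes, had 0 of the 10, as had limma-voom and limma on FPKM values. At an unadjusted p under 0.05, DESeq2 and limma-voom had 0 of the 10, against 7.33% and 7.81% of all genes. Limma on log2(FPKM + 1) had 1 of the 10, Srrm2, against 5.07% of all genes at 1 FPKM or more in 3 libraries and 6.80% without that filter. Groups did not overlap for 2 of the 10, Clk1, lower in each KO library, as were 8.18% of all genes, and Srrm2, higher in each KO library, as were 7.48%. The 2 of 10 are near the 15.7% of all genes without overlap. Fold changes were below 0 for 9 of the 10, or 8 of 10 under upper quartile or library size scaling, against 48.4% of all genes below 0 and 51.6% above. The median log2 fold change was -0.24 over the 10 and +0.02 over all genes. Without KO replicate 1, 6 of 10 were below 0 with a median of -0.09. Leaving out the library labelled WT replicate 3 as well, 5 of 10 were below 0 with a median of -0.01.

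**Figure D1:**
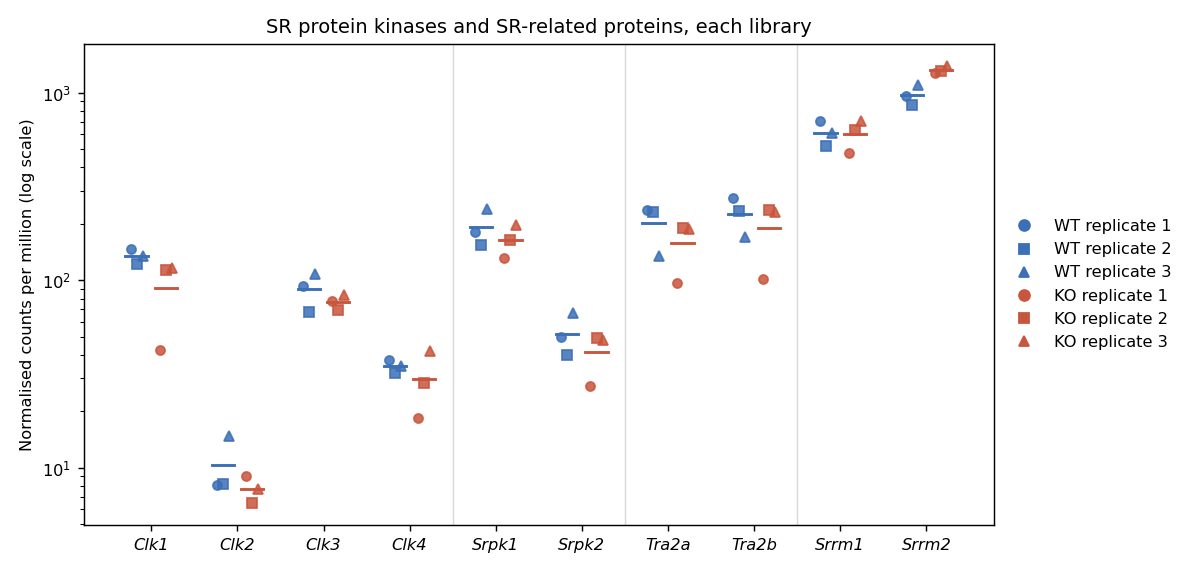
Normalised CPM (log axis) of the 10 genes in each library, with WT in blue, KO in red, 1 marker shape per replicate number and horizontal lines at the group means. The 3 KO libraries lie above the 3 WT libraries for Srrm2 and below them for Clk1, and KO replicate 1 is the lowest library for 7 of the 10 genes.

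Clk1, the CLK kinase with the highest FPKM, was lower in the KO libraries, mostly through 1 of them. WT replicates 1 to 3 gave 147, 122 and 135 CPM, and KO replicates 1 to 3 gave 42.3, 113 and 117 CPM. The groups did not overlap, with KO replicates 2 and 3 just under the lowest WT library and KO replicate 1 far below. The means were 135 ± 12.0 CPM in WT and 90.9 ± 42.1 CPM in KO (SD, n = 3 each). The log2 fold change was -0.57 (SE 0.37), with an edgeR adjusted p of 0.733, and the two-sided exact permutation p over libraries was 0.1, the smallest that 3 against 3 allow. Without KO replicate 1 the log2 fold change was -0.23 (SE 0.14, edgeR adjusted p = 0.619, against 0.519 to 0.999 over the 19 alternatives tried).

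Clk4, the kinase whose exon 4 has the same length as that of Clk1, did not separate the groups. WT replicates 1 to 3 gave 37.6, 31.9 and 34.8 CPM, and KO replicates 1 to 3 gave 18.5, 28.4 and 42.1 CPM. The KO libraries thus lay on both sides of the narrow WT range. The log2 fold change was -0.23 (SE 0.32, edgeR adjusted p = 0.843), and it was +0.01 without KO replicate 1.

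Clk2 and Clk3 had their highest value in the library labelled WT replicate 3. Clk2, a nuclear SR protein kinase also known for a part in liver metabolism, gave 8.13, 8.23 and 14.7 CPM across WT replicates 1 to 3, and 9.05, 6.49 and 7.72 CPM across KO replicates 1 to 3. The groups overlapped, and the log2 fold change of -0.42 (SE 0.35, edgeR adjusted p = 0.769) was -0.09 without the library labelled WT replicate 3. Clk3, a kinase of the same family, gave 93.6, 68.2 and 108 CPM in the WT libraries, against 77.9, 69.6 and 83.3 CPM in the KO libraries. All 3 KO values lay inside the WT range (log2 fold change -0.23, SE 0.24, edgeR adjusted p = 0.803). Without WT replicate 2 the Clk3 value was -0.40, and leaving out the library labelled WT replicate 3 it was -0.08. Clk2 rests on 77 to 410 counts per library, and its counts and FPKM do not scale as in the other genes. Counts divided by FPKM and by the library total correspond to a length of 853 bases (median over libraries), 0.404 of its annotated transcript of 2112 bases, against 0.701 to 1.54 for the other 9 genes.

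The SRPK kinases, which act on SR proteins in the cytoplasm, overlapped between the groups. Srpk1, the pair's member with the higher FPKM, gave 181, 154 and 240 CPM in WT replicates 1 to 3, against 132, 163 and 198 CPM in KO replicates 1 to 3 (log2 fold change -0.22, SE 0.26, edgeR adjusted p = 0.820). Srpk2 gave 49.6, 39.8 and 66.7 CPM in the WT libraries, against 27.5, 49.0 and 48.0 CPM in the KO libraries (log2 fold change -0.33, SE 0.31, edgeR adjusted p = 0.783). For both kinases the highest library was the one labelled WT replicate 3 and the lowest was KO replicate 1. Without these 2 libraries the log2 fold changes were +0.13 (SE 0.15) for Srpk1 and +0.14 (SE 0.17) for Srpk2. The muscle-associated member of the family, Srpk3, had 0 counts in all libraries and was not tested.

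Tra2a and Tra2b, which bind GAA-rich exons, had their low values in the same libraries. Tra2a gave 238, 233 and 135 CPM in WT replicates 1 to 3, against 96.7, 190 and 188 CPM in KO replicates 1 to 3. Tra2b gave 274, 234 and 170 CPM in the WT libraries, against 102, 238 and 233 CPM in the KO libraries. For each gene the lowest library was KO replicate 1, followed by the one labelled WT replicate 3, the same 2 libraries that were lowest for Srsf1. The log2 fold changes were -0.35 (SE 0.34, edgeR adjusted p = 0.785) for Tra2a and -0.24 (SE 0.35, edgeR adjusted p = 0.852) for Tra2b. Without KO replicate 1 they were -0.10 and +0.06, and without the library labelled WT replicate 3 they were -0.58 and -0.41. For Tra2b the count per FPKM in KO replicate 1 corresponded to 1770 bases, against 2326 to 2654 bases in the other 5 libraries, so that library lay further below the others in CPM than in FPKM (62.0 FPKM, against at least 69.2 FPKM in the other 5).

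The promoters of Tra2a and Tra2b, from RefSeq (GRCm38.p6, 250 bases before to 50 after the gene start), are shown because both genes were lowest in the same libraries. Such a pattern is common: KO replicate 1 was lowest for 34.8% of all genes tested. Of 10946 protein-coding genes, 1016 had a Pearson r above 0.9 with the mean of these 2 genes. A part of the promoters in the pattern was not tested. Capitals mark matches to TGACGTC on either strand, a 7-base part of the cAMP response element TGACGTCA, picked after the sequences were seen. Overlapping matches on the 2 strands were merged.
Tra2a promoter, chr6:49264003-49264302, minus strand: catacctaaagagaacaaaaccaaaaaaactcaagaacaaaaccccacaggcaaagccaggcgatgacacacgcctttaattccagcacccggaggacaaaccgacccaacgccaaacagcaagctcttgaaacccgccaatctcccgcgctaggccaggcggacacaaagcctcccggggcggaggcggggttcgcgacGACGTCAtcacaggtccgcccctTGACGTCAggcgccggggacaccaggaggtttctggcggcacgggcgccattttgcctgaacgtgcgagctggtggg
Tra2b promoter, chr16:22265956-22266255, minus strand: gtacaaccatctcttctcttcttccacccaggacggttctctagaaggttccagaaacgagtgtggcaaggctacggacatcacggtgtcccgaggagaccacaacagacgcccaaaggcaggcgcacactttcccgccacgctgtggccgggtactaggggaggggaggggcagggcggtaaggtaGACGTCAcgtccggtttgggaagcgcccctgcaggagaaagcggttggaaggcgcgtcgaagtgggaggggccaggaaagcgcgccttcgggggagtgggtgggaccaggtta
Tra2a held 2 separate matches, 1 of them the full TGACGTCA, and Tra2b held 1. Among the 9 of 10 genes found in the promoter table, Clk4 also held 1 match, in the full form. Of 32851 promoters of the same length in that table, 3.21% held TGACGTC on either strand and 1.79% the full TGACGTCA. A match describes letters in this window, and binding was not measured.

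Srrm2, the speckle scaffold, had a higher value in every KO library, and was the 1 gene of the 10 with a fold change above 0 (with Srrm1 a second under upper quartile or library size scaling). WT replicates 1 to 3 gave 966, 865 and 1104 CPM, and KO replicates 1 to 3 gave 1271, 1315 and 1394 CPM. The groups did not overlap, and the KO libraries lay close together (1327 ± 62.2 CPM, against 979 ± 120 CPM in WT, SD, n = 3 each). The log2 fold change was +0.44 (SE 0.22), a 1.36-fold higher level, with an edgeR adjusted p of 0.682. The two-sided exact permutation p was 0.1, the smallest possible here. Over 19 alternatives the log2 fold change stayed between +0.35 and +0.59, with an adjusted p of 0.135 to 0.999.

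Srrm1, a partner of Srrm2 in splicing complexes, showed no such separation. WT replicates 1 to 3 gave 707, 519 and 613 CPM, and KO replicates 1 to 3 gave 480, 633 and 708 CPM. Both groups covered nearly the same range. The log2 fold change was -0.01 (SE 0.25, edgeR adjusted p = 0.987), and it was +0.02 and +0.03 with upper quartile and library size scaling.

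**Figure D2:**
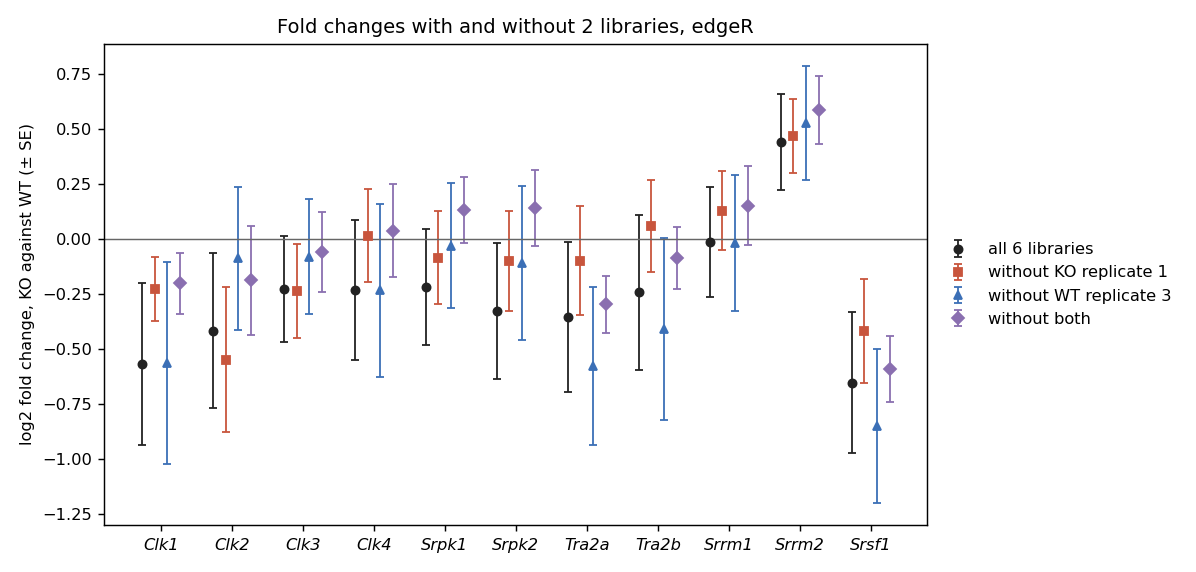
Log2 fold change in KO against WT with its standard error (edgeR) for the 10 genes and Srsf1, with all 6 libraries, without KO replicate 1, without WT replicate 3 and without both. Srrm2 lies between +0.44 and +0.59 in the 4 fits, while Clk4, Srpk1, Srpk2, Tra2b and Srrm1 lie on both sides of 0.

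The libraries at the extremes were similar for many of the genes. KO replicate 1 was the lowest library for 7 of the 10 and the highest for 0, whereas over all genes tested it was the lowest for 34.8% and the highest for 36.6%. The library labelled WT replicate 3 was the highest for 4 of the 10, Clk2, Clk3, Srpk1 and Srpk2, against 18.5% of all genes. KO replicate 1 is also the library with the highest mismatch rate and the lowest correlation with the others. The part that this library's condition has in the low values was not tested.

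By mean FPKM in WT, Srrm1 was the highest of the genes and Srpk2 the lowest. Mean FPKM in WT (± SD, n = 3) were 124 ± 15.9 for Srrm1, 89.4 ± 17.5 for Tra2b, 87.2 ± 23.6 for Tra2a, 85.2 ± 12.8 for Srrm2 and 58.2 ± 14.8 for Srpk1. They were 55.4 ± 3.80 for Clk1, 27.3 ± 6.59 for Clk3, 13.5 ± 0.457 for Clk4, 11.7 ± 3.87 for Clk2 and 6.09 ± 1.76 for Srpk2. Neighbours in this order whose WT libraries overlapped, and so did not differ beyond their spread, were Tra2b and Tra2a, Tra2a and Srrm2, Srpk1 and Clk1, and Clk4 and Clk2. In KO the order of means was the same except that Srrm2 (119 FPKM) stood second, ahead of Tra2b (79.3) and Tra2a (69.6). Among neighbours in the KO order, Srrm1 (111 to 138 FPKM) and Srrm2 (113 to 126 FPKM) overlapped, as did Clk1 and Clk3. Tra2a (48.8 to 82.2 FPKM) and Srpk1 (45.9 to 59.1 FPKM) overlapped there too. So did Tra2b and Tra2a, Srpk1 and Clk1, and Clk4 and Clk2. The order depends on the lengths used: by mean WT CPM per kb of the annotated transcript, Srrm1 was again highest (194), but Clk2 (4.90) lay below Srpk2 (8.01), Tra2a (112) and Srrm2 (110) were next to Srrm1, and Clk1 (75.1) lay above Tra2b (66.4). Among 10084 genes with at least 1 FPKM in 3 libraries, Srrm1 lay at the 94.1 percentile of the WT means and Srpk2 at the 32.8 percentile.

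The balance within pairs of related genes was compared inside each library, which removes what both genes share. The ratio of Srrm1 to Srrm2 FPKM was 1.71, 1.39 and 1.29 in WT replicates 1 to 3, against 0.884, 1.12 and 1.18 in KO replicates 1 to 3. All 3 KO ratios lay below all 3 WT ratios, with a difference of -0.46 in log2(FPKM + 1). The two-sided exact permutation p was 0.1, the smallest that 3 against 3 allow, and 0.5 after Benjamini-Hochberg adjustment over the 5 pairs, so no pair could reach 0.05 in this design.

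The other 4 pairs overlapped between the groups. The ratio of Clk1 to Clk4 was 4.30, 3.93 and 4.06 in WT and 2.33, 4.59 and 3.17 in KO (difference -0.35 in log2(FPKM + 1), exact permutation p = 0.4). Srpk1 exceeded Srpk2 in every library, by 9.30 to 10.1 times in WT and 8.81 to 12.5 times in KO (difference +0.12, exact permutation p = 0.4). Clk2 to Clk3 ratios ran from 0.369 to 0.474 in WT and from 0.345 to 0.446 in KO (difference -0.04, exact permutation p = 0.7, and -0.17 with p = 0.6 on log2 CPM). Tra2a to Tra2b ratios ran from 0.869 to 1.05 in WT and from 0.787 to 0.915 in KO (difference -0.15, exact permutation p = 0.3, and -0.06 with p = 0.7 on log2 CPM). Although Tra2a and Tra2b varied widely between libraries, their ratio stayed between 0.787 and 1.05.

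**Figure D3:**
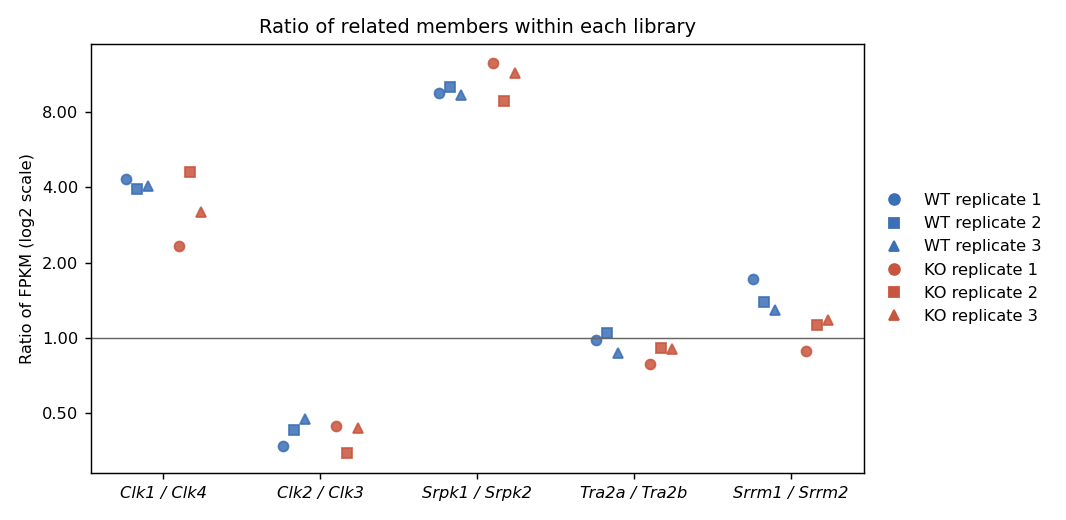
Ratio of FPKM (log2 axis) of 5 pairs of related genes in each library, with WT in blue and KO in red and a line at a ratio of 1. The Srrm1 to Srrm2 ratio is 1.29 to 1.71 in WT and 0.884 to 1.18 in KO, and the other 4 pairs overlap between the groups.

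Other genes of the pathway were read from lists of further kinases of RS domains or of SR-related proteins, phosphatases and import factors, and other SR-related proteins. The lists held 61 genes, of which 58 were tested. Of the 58, 0 passed the threshold in edgeR, DESeq2 or limma-voom. At an unadjusted p under 0.05 in edgeR 1 was higher (Hipk2) and 0 lower, against 4.75% and 2.76% of all genes. The median log2 fold change was +0.02, as over all genes, with 31 of 58 above 0. Among 14 other kinases 12 were above 0 (median +0.13), among 9 phosphatases and import factors 4 (median -0.18), and among 35 other SR-related proteins 15 (median -0.05). The kinase list includes a topoisomerase. Within that list, KO replicate 1 was the highest library for some genes and the lowest for others. Over all genes tested, 51.6% were above 0.

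Over the 58 genes tested, groups did not overlap for 3 higher and 0 lower in KO, against 7.48% and 8.18% of all genes. The 4 higher genes of these lists with the smallest p were Hipk2, Acin1, Scaf1 and Akt2. Hipk2, a nuclear kinase, gave 65.7, 36.8 and 70.5 CPM in the WT libraries, against 96.5, 75.2 and 106 CPM in the KO libraries (log2 fold change +0.68, SE 0.29, edgeR adjusted p = 0.660), with no overlap. Acin1, an RS-containing protein of the exon junction, did not overlap either (+0.37, SE 0.22), while Scaf1 (+0.68, SE 0.41) and the kinase Akt2 (+0.36, SE 0.26) did, and both were highest in KO replicate 1 (170 and 157 CPM). The 4 lower genes were Ppp1cb (-0.68, SE 0.47), a catalytic subunit of protein phosphatase 1, Tnpo1 (-0.38, SE 0.29), an import receptor, Snrnp27 (-0.41, SE 0.35) and Prpf38a (-0.31, SE 0.28), both proteins of the spliceosome. Their edgeR adjusted p ran from 0.749 to 0.775. Each of these 4 was lowest in KO replicate 1, with Ppp1cb at 118 CPM there against 461 to 647 CPM in the other libraries. Tnpo3, the import receptor of SR proteins, overlapped between the groups (log2 fold change -0.18, SE 0.23, edgeR adjusted p = 0.835).

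In the Srsf family itself, 11 of 12 listed genes were tested, and 0 passed in edgeR, DESeq2 or limma-voom. Of the 11, 8 lay below 0 (median -0.26), against 48.4% of all genes. KO replicate 1 was the lowest library for most of the 8, whereas over all genes tested it was the lowest for 34.8%. Within the family, fold changes without that library are given for Srsf1 only. At an unadjusted p under 0.05 in edgeR 1 of the 11 was lower and 0 higher, against 2.76% and 4.75% of all genes. The lower gene was Srsf12, named after its values were seen. It gave 2.08, 1.06 and 2.37 CPM in the WT libraries, against 0.685, 0.603 and 0.401 CPM in the KO libraries (log2 fold change -1.66, SE 0.52, edgeR adjusted p = 0.529). These KO values rest on few reads: a count of 3 equals 0.147, 0.227 and 0.295 CPM in KO replicates 1 to 3.

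**Figure D4:**
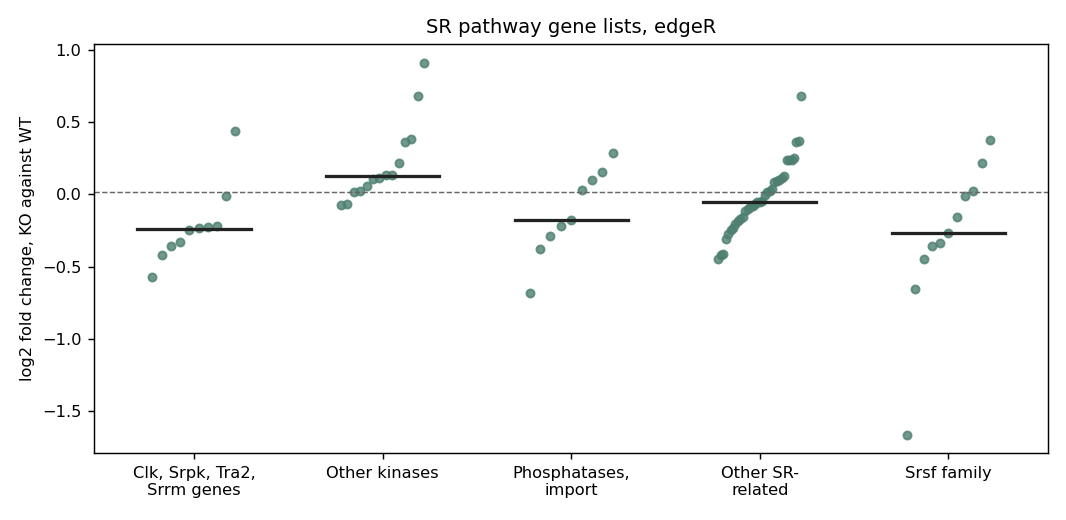
Log2 fold change in KO against WT (edgeR) of each tested gene in 5 lists, 1 point per gene, with a solid line at each list's median and a dashed line at the median of all genes tested (+0.02). The medians are -0.24 for the 10 genes, +0.13 for other kinases, -0.18 for phosphatases and import factors, -0.05 for other SR-related proteins and -0.26 for the Srsf family. All 6 libraries enter each value, KO replicate 1 among them.

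The genes whose log2 CPM across the 6 libraries was most like the mean of each role group were sought among 10946 protein-coding genes, as a description without a test. For the 4 Clk genes they were Cdkl3 (Pearson r = 0.998), Zfp810 (0.996) and Amot (0.995), and for Srpk1 and Srpk2 they were Zfc3h1 (0.995), Maml2 (0.992) and Fchsd2 (0.991). For Tra2a and Tra2b they were Cbx1 (0.999), Psmd1 (0.996) and Pclaf (0.995), and for Srrm1 and Srrm2 they were Taok3 (0.995), Atp6v1g2 (0.988) and Pxk (0.984). The genes named were not alone: 483, 358, 1016 and 48 of the 10946 genes had r above 0.9 with the Clk, Srpk, Tra2 and Srrm means. A high r over 6 libraries carries little weight, and the points share the depth and condition of the libraries.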

How the data were processed

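Per the labels' design text, 3 WT and 3 KO mice gave stranded poly(A) RNA libraries, sequenced from 1 end over 75 bases and analysed in the VIPER pipeline. The submitters' processing notes name mm9, and the file headers name STAR 2.4.2a. How the counting treated strand, and its annotation, are not stated in these sources. The first deposited table holds raw counts, whole numbers for each gene. A second table deposited by the authors, taken as FPKM from its Cufflinks-type name and values, holds 24917 of the 24982 symbols. The deposited alignment report gives percent values per library.

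The main test was edgeR's (version 4.0.16, R 4.3.3; TMM, filterByExpr with a minimum count of 10, quasi-likelihood test, Benjamini-Hochberg, threshold 0.05). CPM are TMM-normalized, and standard errors come from the F statistic. In 26 rows a date replaces the symbol (0.271% of counts); these stayed in library sizes. A count of 3 equals 0.109 to 0.295 CPM. FPKM ratios used log2(FPKM + 1). The 19 alternatives changed the scaling, the filter, the tool (DESeq2 1.42.0, limma 3.58.1 on counts or on FPKM with a pseudocount of 1 or 0.1), a replicate block and the libraries left out. Replicates of a group differed beyond sampling noise (chi-square per degree of freedom 20.6 to 230). Mice are given as 3 per genotype, so replicates are taken as separate animals. Sequences came from RefSeq (GRCm38.p6) and GENCODE M21 (GRCm38), another build than the counts, used for names, transcripts and sequences only.

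The genes, lists and tests were chosen with earlier results of these data known. The text names the 10 genes, Srsf1, Tnpo3 and up to 4 higher and 4 lower genes of the further lists with the smallest p. For each role group it names the 3 most similar genes, leaving out predicted genes and pseudogenes. Cell type markers are named where they bear on the samples.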

Additional observations from a re-analysis of the deposited data

How the results depend on the processing

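Of 190 fold changes of the 10 genes under 19 alternatives each, 0 passed an adjusted p of 0.05 and 176 kept their direction. Of the 14 others, Srrm1 stood at 0.020 (upper quartile), 0.031 (library size only) and 0.019 in each of the 4 limma fits of FPKM. With 1 library left out, Srrm1 ranged from -0.16 to 0.13, Clk4 from -0.58 to 0.015 and Tra2b from -0.44 to 0.058, each highest without KO replicate 1. In the 2 against 2 comparison, which lacks KO replicate 1 as well as the library labelled WT replicate 3, Srrm1 stood at +0.15, Clk4 at 0.036, Srpk1 at +0.13 and Srpk2 at +0.14. None of the 10 genes or of the further lists was called under any alternative, with at most 2 of 10 and 6 of 58 at an unadjusted p under 0.05, both in the 2 against 2 comparison, where 14.0% of all genes had such a p. The count over all genes, 2, was 6 with no filter, 122 in DESeq2's Wald test, 1 in limma-voom, 80 in the 2 against 2 comparison, 0 in both limma fits of unfiltered FPKM and 0 to 3 with 1 library left out. The cause was not tested.

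With 1 library left out, pair differences ranged from -0.59 to -0.11 for Clk1 and Clk4, -0.13 to 0.062 for Clk2 and Clk3, 0.05 to 0.24 for Srpk1 and Srpk2, -0.22 to -0.08 for Tra2a and Tra2b and -0.55 to -0.34 for Srrm1 and Srrm2. Same-numbered libraries of the groups did not deviate together (r = -0.36, 0.15 and 0.14), so the numbers are not treated as pairs; with the replicate number as a block edgeR called 1 gene and 0 of the 10, and the exact sign-flip p for Srrm1 and Srrm2 was 0.25, the smallest that 3 pairs allow. Each KO library was shallower than each WT library, which limits Clk2 most, at 77 counts in its lowest library.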
